A study of Mus musculus with 4 samples.

Results

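The neutrophils described here were 405 of the 24981 cells kept from 4 droplet single-cell RNA libraries of mouse lung. A cell was kept when it had at least 200 detected genes and at most 10% of its unique molecular identifiers (UMIs, each a counted RNA molecule) from mitochondrial genes. It was called a neutrophil when it held at least 10 UMIs of S100a8 and S100a9 together, at least 1 UMI of Csf3r, Retnlg or Cxcr2, and no UMI of Cdh5 (endothelium), Cd79a (B cells) or Cd3e (T cells). The call rule therefore fixed the high S100a8 and S100a9 of these cells, and those levels are given as a description.

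Each of the 4 groups was 1 library. The M3cKO PNX library came from a conditional knockout named M3cKO and the Foxo1cKO PNX library from a conditional knockout of Foxo1, both on day 7 after PNX (short for pneumonectomy, an operation that takes out lung tissue). The WT PNX library came from wild-type mice at the same day, and the sham library from wild-type mice after a sham operation. In all 4 preparations coated beads first removed cells carrying CD45, the common leukocyte antigen, and CD31, an endothelial surface protein, was then used to select cells. The labels call the cells endothelial, so the neutrophils are leukocytes found after a step against leukocytes. The gene behind the name M3, the driver of the knockouts, the animals per library and their age and sex were not given in the sources available here. With 1 library per group nothing measures the spread between animals, so no test was made, and every interval below is a 95% interval of counting error only.

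Neutrophils are short-lived granulocytes that leave the bone marrow loaded with granule proteins and are held in large numbers in the capillaries of the lung. Their granules form in order during maturation: azurophil granules first, then specific granules (Ltf, Camp, Ngp, Lcn2), then gelatinase granules (Mmp9). S100a8 with S100a9 encodes calprotectin, the main protein of their cytosol. In tissue they can secrete interleukin 1 and chemokines and switch on NF-kB and lipid-mediator genes.

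S100a8 (ENSMUSG00000056054, chromosome 3, 90668978 to 90670035, plus strand, GRCm38) and S100a9 (ENSMUSG00000056071, chromosome 3, 90692632 to 90695721, minus strand) lie next to each other in the genome. The RefSeq promoter windows of these defining genes are shown first, because the cells were chosen by them. They run from 250 bases before to 50 bases after the annotated start, on GRCm38.p6. Those of Ngp and Lcn2 follow as genes of the specific granules, and those of Ifit1 and Isg15 as interferon-induced genes, since these groups are described below. Capitals mark matches, on either strand, to TTGCNNAA (a C/EBP-type site) or GAGGAAGT (a PU.1-type site) in the first 4 windows, and to the interferon-stimulated response element (GAAA, 2 bases of any kind, then GAAA) in the last pair.
S100a8 promoter, chr3:90668821-90669120, plus strand: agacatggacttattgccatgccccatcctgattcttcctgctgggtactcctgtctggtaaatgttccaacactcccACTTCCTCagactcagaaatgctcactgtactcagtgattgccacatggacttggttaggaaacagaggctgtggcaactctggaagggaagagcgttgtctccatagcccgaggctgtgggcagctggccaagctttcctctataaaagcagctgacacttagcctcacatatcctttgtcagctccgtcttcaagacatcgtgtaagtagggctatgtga
S100a9 promoter, chr3:90695672-90695971, minus strand: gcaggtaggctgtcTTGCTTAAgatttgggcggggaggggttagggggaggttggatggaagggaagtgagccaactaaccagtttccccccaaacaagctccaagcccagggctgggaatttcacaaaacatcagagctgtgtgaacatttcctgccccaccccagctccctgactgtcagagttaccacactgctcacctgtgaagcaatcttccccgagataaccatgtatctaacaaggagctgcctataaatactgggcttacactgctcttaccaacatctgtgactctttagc
Ngp promoter, chr9:110419558-110419857, plus strand: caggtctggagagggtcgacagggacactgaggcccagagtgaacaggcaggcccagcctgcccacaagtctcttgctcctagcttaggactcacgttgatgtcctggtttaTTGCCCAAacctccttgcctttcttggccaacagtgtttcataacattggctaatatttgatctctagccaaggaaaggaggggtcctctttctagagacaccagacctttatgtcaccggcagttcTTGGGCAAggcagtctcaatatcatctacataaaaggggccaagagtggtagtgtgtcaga
Lcn2 promoter, chr2:32387690-32387989, minus strand: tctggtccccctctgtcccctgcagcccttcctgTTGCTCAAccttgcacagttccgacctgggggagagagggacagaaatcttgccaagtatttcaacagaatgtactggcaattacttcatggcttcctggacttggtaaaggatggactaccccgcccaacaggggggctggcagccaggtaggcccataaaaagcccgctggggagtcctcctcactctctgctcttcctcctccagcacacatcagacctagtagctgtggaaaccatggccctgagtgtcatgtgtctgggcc
Ifit1 promoter, chr19:34640639-34640938, plus strand: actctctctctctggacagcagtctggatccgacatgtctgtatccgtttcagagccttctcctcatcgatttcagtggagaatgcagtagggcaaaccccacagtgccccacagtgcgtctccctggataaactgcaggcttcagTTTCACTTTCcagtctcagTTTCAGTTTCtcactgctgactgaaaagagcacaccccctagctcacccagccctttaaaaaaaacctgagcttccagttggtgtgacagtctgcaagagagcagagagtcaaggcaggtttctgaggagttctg
Isg15 promoter, chr4:156200769-156201068, minus strand: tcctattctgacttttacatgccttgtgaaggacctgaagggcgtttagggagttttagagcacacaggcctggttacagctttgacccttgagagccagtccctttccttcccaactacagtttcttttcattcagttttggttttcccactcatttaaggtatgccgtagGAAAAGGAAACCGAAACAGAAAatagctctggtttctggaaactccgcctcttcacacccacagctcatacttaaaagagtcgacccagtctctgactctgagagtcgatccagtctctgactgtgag
The S100a8 window held 1 match to GAGGAAGT and none to TTGCNNAA, and the S100a9 window 1 match to TTGCNNAA and none to GAGGAAGT. The Ngp window held 2 matches to TTGCNNAA and the Lcn2 window 1. Over all 32851 windows of this length, 10.8% held TTGCNNAA, 3.20% held GAGGAAGT and 3.44% held the interferon element. Of the interferon list used below, 15 of 27 genes (55.6%) held that element in any of their windows, and the matches in the Isg15 window overlap. Of the specific granule list, 5 of 13 genes (38.5%) held TTGCNNAA in any window. A gene can have several windows, so these shares of genes are not counted like the shares over all windows. A match describes these letters only.

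The first question was how many neutrophils each library held. There were 245 neutrophils among 6035 kept cells in M3cKO PNX, 82 of 6720 in Foxo1cKO PNX, 76 of 6671 in WT PNX and 2 of 5555 in sham. These are shares of 4.06% (exact binomial interval 3.58 to 4.59), 1.22% (0.972 to 1.51), 1.14% (0.899 to 1.42) and 0.036% (0.00436 to 0.13). The M3cKO PNX share was 3.56-fold the WT PNX share (2.74 to 4.67), while the Foxo1cKO PNX share was 1.07-fold (0.774 to 1.48), an interval that includes no difference. The WT PNX share was 31.6-fold the sham share (8.46 to 266), on 2 sham cells.

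The other cells of the libraries differed too, which moves any share. Endothelial cells, taken as cells with a Cdh5 UMI, made up 42.1% of kept cells in M3cKO PNX, 57.1% in Foxo1cKO PNX, 60.1% in WT PNX and 83.4% in sham. Among kept cells without a Cdh5 UMI, neutrophils were 7.44% in M3cKO PNX, 3.51% in Foxo1cKO PNX, 3.61% in WT PNX and 0.256% in sham, and M3cKO PNX was 2.06-fold WT PNX (1.59 to 2.71). Among cells that also held a UMI of Ptprc, the gene of CD45, they were 9.37%, 4.07%, 4.86% and 0.889% in the same order of libraries, with a ratio of M3cKO PNX to WT PNX of 1.93 (1.45 to 2.59). T cells were 17.5% of kept cells in M3cKO PNX and 8.25% in WT PNX, a ratio of 2.12 that was 1.23 without Cdh5 cells and 1.12 (0.996 to 1.25) with Ptprc. Macrophages high in C1q genes were 2.02% in M3cKO PNX and 0.240% in WT PNX, a ratio of 8.43 (4.99 to 15.2), and monocytes with Cd300e, Fcgr4, Ace or Treml4 were 3.65% and 0.750%. B cells went the other way, at 4.04% in M3cKO PNX and 8.98% in WT PNX. The CD45 depletion can set all of these shares, and its part in them was not tested. No deposited barcode held under 500 UMIs, so cells below that floor are missing from every share. Of the neutrophils, 43 of 245 in M3cKO PNX, 30 of 82 in Foxo1cKO PNX and 21 of 76 in WT PNX held under 1000 UMIs. The part of the floor in the shares was not tested either.

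**Figure D1:**
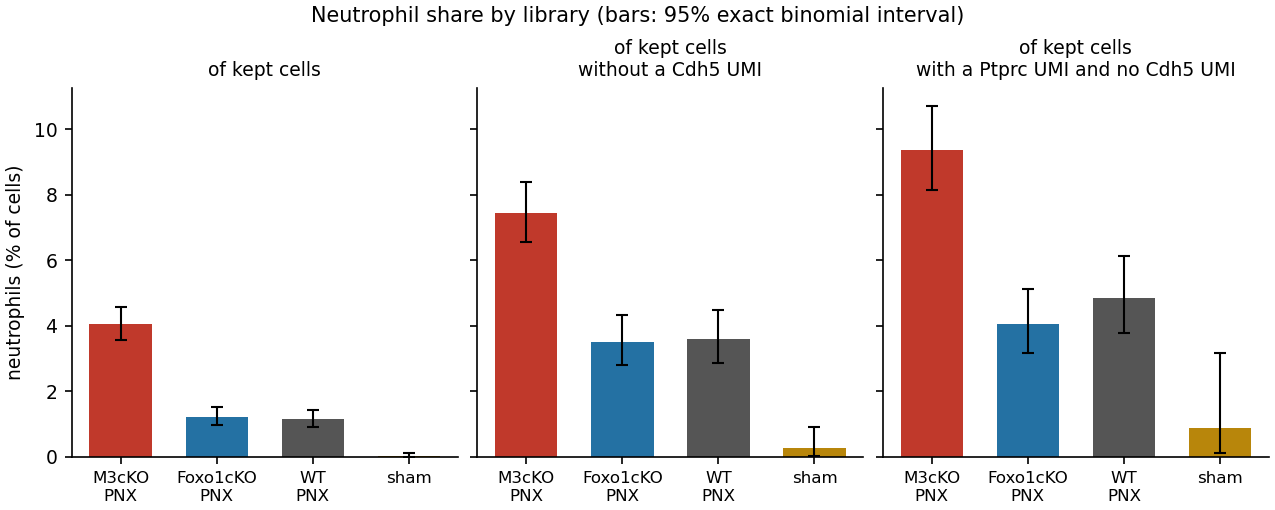
Neutrophils as a percentage of 3 sets of kept cells (y axis, linear) in the 4 libraries, 1 library per bar, with 95% exact binomial intervals. The M3cKO PNX bar is the highest in each panel (4.06%, 7.44% and 9.37%), while the intervals of Foxo1cKO PNX and WT PNX overlap.

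Cells just inside the S100 limit, with 10 to 19 UMIs of S100a8 and S100a9, numbered 5 in M3cKO PNX, 6 in Foxo1cKO PNX and 6 in WT PNX. They held 5320, 3137 and 2299 CPM (UMIs of a gene scaled to a common total of the summed cells) of Il1r2, the decoy receptor for interleukin 1, which the rule did not use. Cells just outside, with 5 to 9 UMIs, numbered 2, 5 and 3 and held 3911, 1446 and 4575 CPM of Il1r2 in the same order. Cells with 1 to 4 UMIs numbered 18, 9 and 3 and held 47.9, 57.2 and 129 CPM of it. A further 34, 18 and 15 cells met the S100 limit but held a UMI of Cdh5, Cd79a or Cd3e and were left out. No barcode was called a neutrophil in more than 1 library, although 68 to 111 barcodes were shared by each pair of libraries.

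Neutrophils held little RNA. The median neutrophil had 1451 UMIs in M3cKO PNX, 1180 in Foxo1cKO PNX and 1215 in WT PNX, from 655, 538 and 570.5 genes, and their UMIs summed to 408103, 115181 and 99526. One UMI is therefore 2.45 CPM in the summed M3cKO PNX neutrophils, 8.68 CPM in Foxo1cKO PNX and 10.05 CPM in WT PNX, so low levels are less certain in both smaller libraries. Mitochondrial UMIs were a median of 0.707%, 0.432% and 0.526% of a neutrophil's UMIs, against 6.91%, 7.03% and 7.05% over all kept cells of those libraries.

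S100a9 reached 67907 CPM in M3cKO PNX, 90510 CPM in Foxo1cKO PNX and 63169 CPM in WT PNX, and S100a8 49468, 71053 and 43567 CPM. In the other kept cells of the same libraries S100a9 was 340.1, 224 and 110.2 CPM. Of endothelial cells, which should lack both genes, 6.18%, 4.95% and 4.36% held any UMI of S100a8 or S100a9, at median depths of 2015, 2553 and 2761 UMIs. Every neutrophil held at least 10 by the rule, and 14 of 2540 endothelial cells did in M3cKO PNX.

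Other neutrophil genes, which the rule did not use, were present in each library. Il1r2 had 3016, 1398 and 1969 CPM in M3cKO PNX, Foxo1cKO PNX and WT PNX neutrophils. Hdc, the histamine-forming enzyme, had 3972, 1728 and 2120 CPM, and Mmp9, a gelatinase, had 1610, 2058 and 1768 CPM. C1qa, a macrophage gene, was at 0 UMIs in all 3, and Csf1r, the monocyte growth factor receptor, was at 157, 156 and 161 CPM. Foxo1 itself was barely detected in neutrophils, with 8 UMIs in M3cKO PNX, none in Foxo1cKO PNX and 1 in WT PNX, so the deletion cannot be read in these cells. In endothelium it was 177 CPM in M3cKO PNX, 65.2 CPM in Foxo1cKO PNX and 200 CPM in WT PNX, lower in the library labelled as its knockout.

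Markers of other cells were low but not equal between libraries. Endothelial markers summed to 150, 478 and 1055 CPM in M3cKO PNX, Foxo1cKO PNX and WT PNX neutrophils, with 10, 10 and 11 of 12 members detected. Platelet markers summed to 890, 60.8 and 201 CPM, with 10, 4 and 5 of 10 members detected. The monocyte list summed to 1728, 1841 and 1537 CPM, the macrophage or dendritic cell list to 524, 616 and 583 CPM, and the epithelial list to 125, 165 and 412 CPM. The fibroblast or mural list summed to 98.0, 122 and 231 CPM, the B cell list to 39.2, 69.5 and 70.3 CPM, and the T or NK cell list to 36.8, 86.8 and 80.4 CPM. Eosinophil, basophil or mast cell markers stayed at 34.3, 17.4 and 90.4 CPM and red cell markers at 2.45, 0 and 0 CPM. Libraries also differed in the sex of their cells: UMIs of Y-linked genes without Xist were found in 94 of 245 M3cKO PNX, 6 of 82 Foxo1cKO PNX and 4 of 76 WT PNX neutrophils, and Xist alone in 0, 1 and 3. Their part in the results below was not tested.

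Neutrophils of M3cKO PNX had higher levels than those of WT PNX of Thbs1, Gsr, Dgat1 and Adam8. They had lower levels of Il1b, Ctnnb1 and 7 interferon-induced genes. A gene was compared at 2-fold when its higher library had at least 100 CPM and 20 UMIs. Of 1256 genes so compared, 189 (15%) were at least 2-fold higher in M3cKO PNX and 63 (5.02%) at least 2-fold lower. The minimum is not equal in both libraries, since 20 UMIs are 49.0 CPM in M3cKO PNX and 201 CPM in WT PNX: at a minimum of 200 CPM the counts were 87 and 63. Scaling by trimmed mean (TMM) factors shifted every log2 ratio of CPM by 0.25 and gave 307 higher and 34 lower. A list member was counted at 1.5-fold when its higher library had at least 50 CPM, and over all 2878 such genes 661 (23.0%) were higher and 802 (27.9%) lower, with a median log2 difference of -0.06.

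Thbs1, which encodes the matrix protein thrombospondin 1, a regulator of vessel growth, stood at 2627 CPM (1072 UMIs) in M3cKO PNX, 434 CPM (50 UMIs) in Foxo1cKO PNX and 432 CPM (43 UMIs) in WT PNX. The level in M3cKO PNX was 6.08 times that in WT PNX (4.48 to 8.45). At least 1 Thbs1 UMI was in 59.2% of M3cKO PNX, 13.4% of Foxo1cKO PNX and 17.1% of WT PNX neutrophils, and with each cell thinned to 500 UMIs in 48.2%, 9.76% and 13.2%. Its UMIs came from many M3cKO PNX cells, of which none held more than 2.99%. In endothelium Thbs1 stood at 80.1 CPM in M3cKO PNX and 125 CPM in WT PNX, while in T cells it was 72.1 and 8.31 CPM. The T cells also held RNA of S100a8 and S100a9, together at 1295 CPM in M3cKO PNX and 211 CPM in WT PNX. In M3cKO PNX 2500 of those 4346 UMIs were in 1 cell. A level in T cells, here and below, can therefore include RNA of other cells, which was not tested.

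Gsr, glutathione reductase, was at 1002 CPM in M3cKO PNX, 104 CPM in Foxo1cKO PNX and 60.3 CPM in WT PNX, a ratio to WT PNX of 16.6 (7.57 to 45.6), and at 35.0 and 32.4 CPM in M3cKO PNX and WT PNX endothelium. Dgat1, which makes triglyceride, was at 444, 69.5 and 20.1 CPM, with 181, 8 and 2 UMIs and a ratio of 22.1 (6.02 to 184). It was also higher in T cells, at 328 CPM in M3cKO PNX and 48.4 CPM in WT PNX. Plin2, the coat protein of lipid droplets, was at 757, 148 and 121 CPM, a ratio of 6.28 (3.54 to 12.3), and Hilpda, an inhibitor of lipid breakdown in droplets, at 395, 104 and 90.4 CPM, a ratio of 4.36 (2.24 to 9.71). Plin2 in T cells was 88.2 CPM in M3cKO PNX and 3.78 CPM in WT PNX. Slc7a11, the cystine importer, was at 507 CPM in M3cKO PNX, 69.5 CPM in Foxo1cKO PNX and 251 CPM in WT PNX, so it was 2.02-fold higher in M3cKO PNX (1.33 to 3.19).

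Adam8, a surface protease of leukocytes, was at 2708 CPM in M3cKO PNX, 1337 CPM in Foxo1cKO PNX and 1196 CPM in WT PNX, a ratio to WT PNX of 2.27 (1.87 to 2.76). Mmp8, neutrophil collagenase, was at 2321, 1598 and 904 CPM in the same order, a ratio of 2.57 (2.07 to 3.22). Stat3, the transcription factor downstream of granulocyte colony-stimulating factor, was at 789, 599 and 342 CPM, a ratio of 2.31 (1.62 to 3.39), and Cd300lf, an inhibitory receptor, at 1299, 773 and 613 CPM, a ratio of 2.12 (1.62 to 2.81). All 4 were ordered M3cKO PNX, Foxo1cKO PNX, WT PNX, and the Adam8 interval of Foxo1cKO PNX over WT PNX, 0.875 to 1.43, includes no difference.

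Of 14 survival and apoptosis genes compared at 2-fold, 5 were higher in M3cKO PNX and none lower, where 15% of all compared genes were higher. Bcl2l1, which encodes the survival protein Bcl-xL, was at 245 CPM in M3cKO PNX, 60.8 CPM in Foxo1cKO PNX and 10.05 CPM in WT PNX, where it rests on 1 UMI, and the ratio to WT PNX was 24.4 (4.28 to 973). Bcl2l11, which encodes the death-promoting protein Bim, was at 495, 182 and 171 CPM, a ratio of 2.90 (1.77 to 5.07). Cdkn1a, the cell-cycle inhibitor p21, was at 615, 113 and 151 CPM, a ratio of 4.08 (2.43 to 7.40). Cflar and Bcl10 had ratios of 2.62 (0.953 to 10.1) and 2.02 (0.921 to 5.25), intervals that include no difference. At 1.5-fold the list had 6 of 20 measured genes higher and 5 lower, near the 23.0% and 27.9% of all genes, with a median log2 difference of -0.02, and Mcl1, a short-lived survival protein that neutrophils depend on, was at 2237, 2414 and 2813 CPM. Cdkn1a was higher in T cells as well, at 364 CPM in M3cKO PNX and 71.8 CPM in WT PNX, and Bcl2l1 in endothelium, at 200 and 63.0 CPM.

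The list of tissue-activated and aged neutrophil genes went both ways. Of 21 compared at 2-fold, 5 were higher in M3cKO PNX (Plin2, Hilpda, Nfkb2, Ctsd and Sod2) and 2 lower (Ccrl2 and Ptgs2). Of all compared genes 15% were higher and 5.02% lower. At 1.5-fold 12 of 25 were higher and 6 lower, where 23.0% and 27.9% of all genes were, with a median of 0.25. Under TMM factors the counts at 2-fold were 5 higher and none lower. In T cells of the same libraries 17 of 22 members were higher at 1.5-fold and 1 lower, where 17.8% of all T cell genes were higher and 13.4% lower. S100a8 and S100a9 together were at 1295 CPM in M3cKO PNX and 211 CPM in WT PNX in those T cells. RNA of other cells was not set apart there. In B cells 9 of 21 were higher and 1 lower (10.4% and 18.0% of all genes), and in endothelium 5 of 18 and 1 (7.48% and 8.11%). In the monocytes with Cd300e, Fcgr4, Ace or Treml4 the list median of M3cKO PNX over WT PNX was 0.385. Cxcr4, the receptor that returns aged neutrophils to marrow, was at 1220, 1710 and 1909 CPM in M3cKO PNX, Foxo1cKO PNX and WT PNX, a ratio of M3cKO PNX to WT PNX of 0.639 (0.54 to 0.76).

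Il1b, which encodes the secreted inflammatory cytokine interleukin 1 beta, was at 10551 CPM in M3cKO PNX, 18849 CPM in Foxo1cKO PNX and 21492 CPM in WT PNX. In M3cKO PNX it was 0.491-fold the WT PNX level (0.466 to 0.517), and 0.584 under TMM factors, which is short of 2-fold. With cells thinned to 500 UMIs, 89.4% of M3cKO PNX, 92.7% of Foxo1cKO PNX and 97.4% of WT PNX neutrophils held Il1b. In T cells of the same libraries Il1b was higher in M3cKO PNX, at 374 CPM, than in WT PNX, at 101 CPM. It was also higher in the monocytes with Cd300e, Fcgr4, Ace or Treml4, at 3262 CPM in M3cKO PNX and 1666 CPM in WT PNX. There 186 of 220 and 42 of 50 cells held an Il1b UMI. Cxcl2, a chemokine that attracts neutrophils, was at 11546, 7467 and 10078 CPM, a ratio of M3cKO PNX to WT PNX of 1.15 (1.07 to 1.23). Tnf was at 203, 43.4 and 20.1 CPM, with 37.4% of its M3cKO PNX UMIs in 1 cell. Ccl3, a macrophage-attracting chemokine, was at 488, 382 and 171 CPM, a ratio of 2.86 (1.74 to 5.0).

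Cxcr2, the receptor for Cxcl2, was at 1233 CPM in M3cKO PNX, 3264 CPM in Foxo1cKO PNX and 3286 CPM in WT PNX. It is 1 of the genes of the call rule, so these levels are a description. After thinning, 42.9% of M3cKO PNX, 79.3% of Foxo1cKO PNX and 77.6% of WT PNX neutrophils held a Cxcr2 UMI, against 0.669%, 0.547% and 0.573% of endothelial cells unthinned. Ccrl2, which binds chemerin, was at 701, 1493 and 1457 CPM, a ratio of 0.481 (0.393 to 0.592). Trem1, which amplifies inflammatory signals, was at 2918, 4853 and 5124 CPM, a ratio of 0.570 (0.513 to 0.633). Of the 21 receptors compared at 2-fold, 1 was higher (Ifngr2, a chain of the interferon gamma receptor). Ccrl2 was the 1 lower receptor that the call rule did not use. Of all compared genes 15% were higher and 5.02% lower.

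Ptgs2, the inducible cyclooxygenase, was at 848 CPM in M3cKO PNX, 981 CPM in Foxo1cKO PNX and 1979 CPM in WT PNX. The ratio to WT PNX was 0.428 (0.359 to 0.513) for M3cKO PNX and 0.496 (0.39 to 0.628) for Foxo1cKO PNX, and both use the same WT PNX library. Under TMM factors they were 0.509 and 0.560, short of 2-fold. Pla2g7, which breaks down platelet-activating factor, was at 681, 1198 and 1658 CPM, a ratio of M3cKO PNX to WT PNX of 0.411 (0.338 to 0.501). Ptgs2 and Pla2g7 were the 2 lower of 4 lipid-mediator genes compared at 2-fold in M3cKO PNX, where 5.02% of all compared genes were lower. At 1.5-fold 1 of 7 was higher and 4 lower, where 23.0% and 27.9% of all genes were. The list median of -1.20 became 0.065 with members measured from 20 CPM.

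Interferon-induced genes are part of the antiviral response of a cell. Of 13 compared at 2-fold, 7 were lower and none higher, among them Ifit1, Isg15, Rsad2, Oasl2, Slfn5 and Gbp7, where 5.02% of all compared genes were lower. At 1.5-fold, 11 of 21 measured were lower and 1 higher, where 27.9% and 23.0% of all genes were, with a median of -0.85. Rsad2, an antiviral enzyme, was at 262 CPM in M3cKO PNX, 373 CPM in Foxo1cKO PNX and 563 CPM in WT PNX, a ratio of M3cKO PNX to WT PNX of 0.466 (0.334 to 0.656). Isg15, a ubiquitin-like antiviral protein, was at 95.6, 191 and 211 CPM, a ratio of 0.453 (0.26 to 0.81), and Slfn5, an interferon-induced Schlafen gene, at 78.4, 321 and 261 CPM, a ratio of 0.300 (0.173 to 0.524). Oasl2, of the oligoadenylate synthetase family, had 348, 1025 and 713 CPM, a ratio of 0.488 (0.364 to 0.658).

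Ifit1, at 53.9, 208 and 322 CPM, had 71.9% of its WT PNX UMIs in 1 cell, and M3cKO PNX stood at 0.168-fold WT PNX with that cell and 0.483 without the top Ifit1 cell of each library. Without those cells 5 of 11 list genes were at least 2-fold lower, where 5.02% of all compared genes were lower with every cell kept. Under TMM factors 3 of 13 list genes were lower (Ifit1, Slfn5 and Gbp7), among 34 lower genes in all. The summed level of the list was 9378 CPM in M3cKO PNX and 10128 CPM in WT PNX neutrophils, and Ifitm1, its most abundant member, was higher in M3cKO PNX, at 4925 CPM against 2934 CPM in WT PNX. In T cells 9 of 14 members were lower at 1.5-fold and 2 higher (13.4% and 17.8% of all genes), in B cells 3 of 7 and 1 (18.0% and 10.4%), and in endothelium 1 of 15 and 1 (8.11% and 7.48%). In the monocytes with Cd300e, Fcgr4, Ace or Treml4 the list median of M3cKO PNX over WT PNX was -0.15, over 10 measured members. Psmb8, an immunoproteasome subunit induced by interferon, was at 49.0, 122 and 221 CPM in neutrophils, a ratio of M3cKO PNX to WT PNX of 0.222 (0.115 to 0.426), and in T cells at 219, 455 and 456 CPM.

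Ctnnb1, which encodes beta-catenin, was at 159 CPM in M3cKO PNX, 556 CPM in Foxo1cKO PNX and 794 CPM in WT PNX, a ratio of M3cKO PNX to WT PNX of 0.201 (0.142 to 0.282). In T cells it was 227 CPM in M3cKO PNX and 197 CPM in WT PNX, and in endothelium 757 and 653 CPM. Gdpd3, a lysophospholipase D, had 27.0, 1598 and 342 CPM, a ratio of 0.0789 (0.0361 to 0.16) for M3cKO PNX and 4.68 (3.23 to 6.96) for Foxo1cKO PNX. It followed the same order in T cells, at 2.38, 353 and 151 CPM, and in endothelium, at 11.1, 137 and 35.6 CPM. Lst1, a leukocyte transmembrane protein, was at 63.7, 243 and 332 CPM, a ratio of M3cKO PNX to WT PNX of 0.192 (0.11 to 0.331), and Cstdc5, of the stefin family of protease inhibitors, at 66.2, 434 and 382 CPM, a ratio of 0.173 (0.102 to 0.291).

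**Figure D2:**
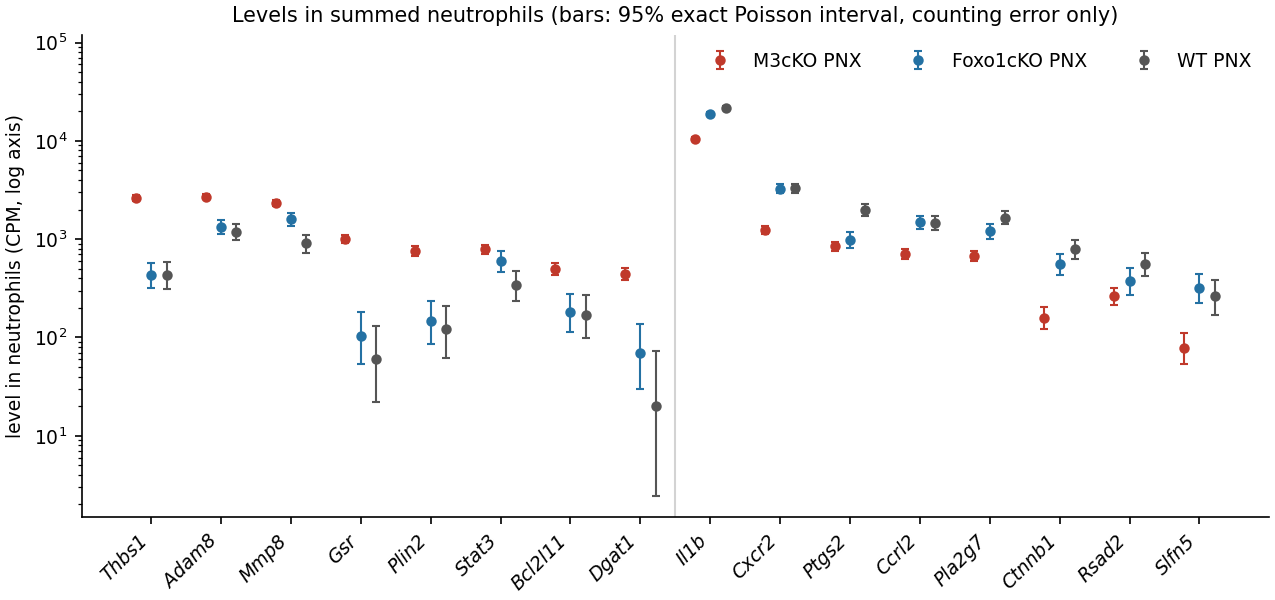
Levels of 16 genes in the summed neutrophils of the M3cKO PNX, Foxo1cKO PNX and WT PNX libraries (y axis, CPM on a log axis, 1 point per library, bars 95% exact Poisson intervals). The 8 genes left of the grey line were higher in M3cKO PNX (Thbs1 at 2627, 434 and 432 CPM) and the 8 right of it lower (Il1b at 10551, 18849 and 21492 CPM; Cxcr2, a gene of the call rule, is drawn as a description), while the intervals of Foxo1cKO PNX and WT PNX overlap for most genes shown.

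The 10 genes with the largest ratios in each direction were read in endothelium, T cells and B cells of the same libraries. Levels in the monocytes and in the macrophages high in C1q genes are not given for them. A difference below is therefore not shown to be particular to neutrophils. The same holds for Thbs1, Gsr, Dgat1 and Plin2 above. Of the 10 higher in M3cKO PNX neutrophils (Bcl2l1, Dgat1, Gsr, Ngp, Cyth1, Nr1h2, Ccdc174, Tnf, Ppbp and Nrros), 5 reached 50 CPM in endothelium, 5 in T cells and 6 in B cells, and 2, 3 and 3 of these were at least 1.5-fold higher there, where 7.48%, 17.8% and 10.4% of all genes were. Of the 10 lower (Gdpd3, Ifit1, Cstdc5, Lst1, Ctnnb1, Psmb8, Clec5a, Tmpo, Krt80 and Gbp7), 6 reached 50 CPM in endothelium, 5 in T cells and 5 in B cells, and 2, 3 and 3 of these were lower at that size, where 8.11%, 13.4% and 18.0% of all genes were. Cyth1, an exchange factor for ARF GTPases, was at 270 CPM in M3cKO PNX neutrophils and 20.1 CPM in WT PNX neutrophils, against 63.5 and 66.5 CPM in T cells. Nrros, a regulator of reactive oxygen in phagocytes, was at 439 and 60.3 CPM in neutrophils, a ratio of 7.28 (3.28 to 20.1), against 45.6 and 35.5 CPM in T cells. Krt80, an epithelial keratin, was at 63.7 and 251 CPM in M3cKO PNX and WT PNX neutrophils, while in endothelium it was 1025 and 450 CPM. Ppbp, a platelet chemokine, rests on 1 cell with 56.8% of its M3cKO PNX UMIs, and its ratio of 7.52 became 0.0436 without the cells of highest doublet score.

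**Figure D3:**
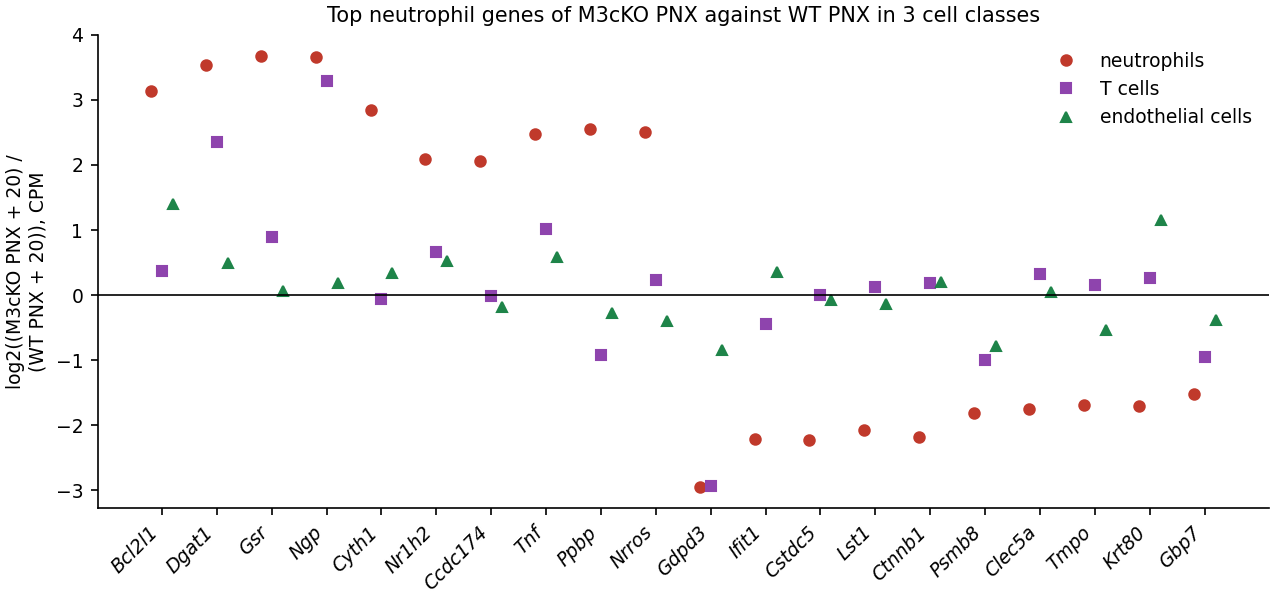
Differences of M3cKO PNX over WT PNX (y axis, log2 of CPM plus 20) in neutrophils, T cells and endothelial cells for the 20 genes with the largest neutrophil ratios; 1 library per group, so no error is shown. Cyth1 and Nrros were higher and Ctnnb1 lower in neutrophils with small differences in T cells, whereas Gdpd3 was lower in both.

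Foxo1cKO PNX neutrophils had more RNA of granule genes than WT PNX neutrophils, much of it in 1 cell, and more Ly6g and Gdpd3. Of 905 genes compared, 37 (4.09%) were at least 2-fold higher in Foxo1cKO PNX and 53 (5.86%) at least 2-fold lower. TMM factors, which shifted the log2 ratios of CPM by 0.18, gave 50 higher and 28 lower. Totals without the S100 pair, mitochondrial and ribosomal protein genes gave 42 and 38, so the balance of directions depends on the scaling. At 1.5-fold, over 2870 genes, 471 (16.4%) were higher and 895 (31.2%) lower, with a median of -0.17.

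Of 8 specific granule genes compared at 2-fold, 7 were higher in Foxo1cKO PNX and none lower (4.09% and 5.86% of all compared genes). At 1.5-fold 9 of 13 were higher and none lower (16.4% and 31.2% of all genes), with a median of 1.34. Ngp, neutrophilic granule protein, was at 1122 CPM in M3cKO PNX, 4827 CPM in Foxo1cKO PNX and 70.3 CPM in WT PNX, but 86.9% of the Foxo1cKO PNX UMIs and 48.0% of the M3cKO PNX UMIs came from 1 cell each. Ltf, lactoferrin, was at 213, 1667 and 0 CPM, with 99.5% of the Foxo1cKO PNX UMIs in that cell, and Camp, the cathelicidin precursor, at 68.6, 1224 and 0 CPM, with 98.6% there. Against a floor of 3 UMIs in WT PNX, Ltf was at least 55.3-fold and Camp at least 40.6-fold higher in Foxo1cKO PNX.

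The cell held 7241 UMIs: 483 of Ngp, 191 of Ltf, 139 of Camp, 145 of Lcn2, 31 of Chil3, 1 of Cxcr2 and none of Il1b. The top Ngp cell of M3cKO PNX held 3571 UMIs, with 220 of Ngp, 60 of Ltf and 25 of Camp and none of Cxcr2 or Il1b. That of WT PNX held 1173 UMIs, with 2 of Ngp, 7 of Cxcr2 and 16 of Il1b. None of the 3 held a UMI of the dividing-cell gene Mki67. Cells with 3 or more Ngp UMIs numbered 10 of 245 in M3cKO PNX, 6 of 82 in Foxo1cKO PNX and 0 of 76 in WT PNX.

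Without the top Ngp cell of each library, Ngp was 13.3-fold higher in Foxo1cKO PNX than in WT PNX, and Lcn2, lipocalin 2, which binds iron-carrying siderophores, 2.33-fold. Lcn2 with all cells was at 2593 CPM in M3cKO PNX, 3794 CPM in Foxo1cKO PNX and 1166 CPM in WT PNX. Cybb, the catalytic subunit of NADPH oxidase, was at 289, 408 and 80.4 CPM, a ratio of Foxo1cKO PNX to WT PNX of 5.08 (2.38 to 12.4) that was 2.62 without those cells. Lyz2, lysozyme, and Anxa1, annexin A1, had ratios of 2.56 and 2.43 that became 1.82 and 1.82. Chil3, a chitinase-like protein, had 93.9% of its Foxo1cKO PNX UMIs in 1 cell, and its ratio of 5.70 turned to 0.365 without the top Ngp cells. Of the specific granule list, 3 of 6 genes compared were then at least 2-fold higher, with a median of 0.85. In T cells the list median of Foxo1cKO PNX over WT PNX was 1.8, over 4 measured genes. Of the S100a8 and S100a9 UMIs of Foxo1cKO PNX T cells, 1756 of 1797 were in 1 cell. The median was 0.23 in B cells, -0.44 in endothelium and 0.016 in the monocytes with Cd300e, Fcgr4, Ace or Treml4.

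Of 15 gelatinase granule and late maturation genes, 4 were at least 2-fold higher in Foxo1cKO PNX (Stfa2, Stfa3, Wfdc21 and Ifitm6) and none lower, where 4.09% of all compared genes were higher, and without the top Ngp cells 3 were higher. Ifitm6, an interferon-induced transmembrane family member of myeloid cells, was at 615 CPM in M3cKO PNX, 1598 CPM in Foxo1cKO PNX and 332 CPM in WT PNX, a ratio to WT PNX of 4.82 (3.31 to 7.21), or 2.95 without those cells. Wfdc21, a secreted antimicrobial-type peptide, was at 1483, 2535 and 1246 CPM, a ratio of 2.04 (1.64 to 2.53). Ly6g, the surface antigen used to identify mouse neutrophils, was at 196, 686 and 281 CPM, a ratio of 2.44 (1.57 to 3.90), and 2.62 without the top Ngp cells. It had a UMI in 18.4%, 31.7% and 18.4% of cells. Prok2, an angiogenic peptide made by neutrophils, was at 78.4, 200 and 30.1 CPM with 32, 23 and 3 UMIs, a ratio of 6.63 (2.00 to 34.5) of Foxo1cKO PNX to WT PNX.

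In M3cKO PNX the specific granule list had 4 of 9 genes at least 2-fold higher than in WT PNX (Ltf, Ngp, Lcn2 and Cybb) and none lower, where 15% of all compared genes were higher, and 6 of 11 at 1.5-fold, against 23.0% of all genes, with a median of 0.73. Both comparisons share the WT PNX library, in which no cell held 3 Ngp UMIs. Ngp in M3cKO PNX was 16.0-fold higher (7.68 to 39.9) and 11.6-fold without the top cell of each library, and Ltf at least 7.07-fold higher with it and at least 2.19-fold without it. The list median of M3cKO PNX over WT PNX was 2.00 in T cells, over 5 measured genes. It was -0.18 in B cells, 0.14 in endothelium and -0.26 in the monocytes with Cd300e, Fcgr4, Ace or Treml4.

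The 10 genes with the lowest ratios of Foxo1cKO PNX to WT PNX were Arl4c, Gmip, Rabac1, Slc7a11, Napa, Ubxn4, Csnk1e, Pqlc1, Pcf11 and Tmed5, each with 5 to 15 UMIs in Foxo1cKO PNX. Slc7a11, the cystine importer, was at 69.5 CPM in Foxo1cKO PNX and 251 CPM in WT PNX, a ratio of 0.277 (0.108 to 0.632). Acod1, which makes itaconate, was at 3712 CPM in M3cKO PNX, 1129 CPM in Foxo1cKO PNX and 2492 CPM in WT PNX, a ratio of Foxo1cKO PNX to WT PNX of 0.453 (0.364 to 0.562). Ptafr, the receptor for platelet-activating factor, was at 784, 391 and 794 CPM, a ratio of 0.492 (0.334 to 0.719), and Jun, an immediate early transcription factor, at 284, 148 and 322 CPM, a ratio of 0.459 (0.239 to 0.852). The interferon list had 1 of 14 genes at least 2-fold higher and none lower (4.09% and 5.86% of all compared genes), with a median of 0.02.

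**Figure D4:**
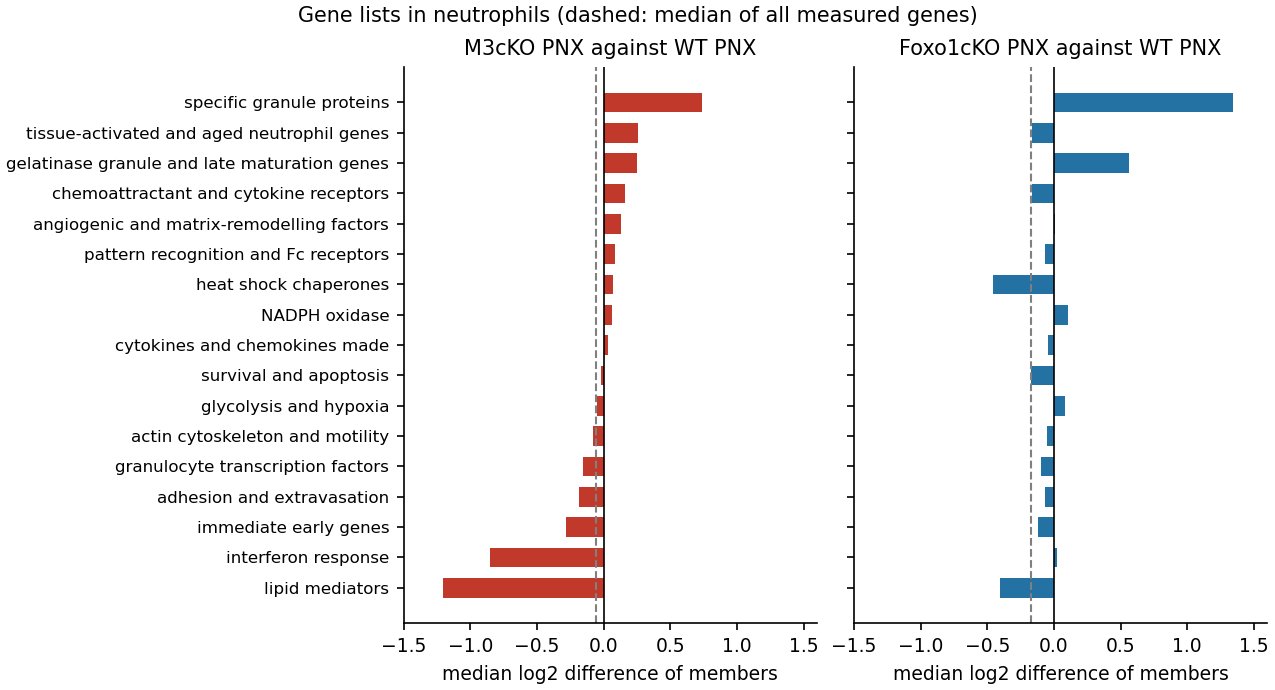
Median log2 difference of list members measured at 50 CPM or more (x axis) in neutrophils, M3cKO PNX over WT PNX on the left and Foxo1cKO PNX over WT PNX on the right; the dashed lines are the medians of all measured genes, -0.06 and -0.17. Specific granule proteins had the highest median of the lists drawn in both panels (0.73 and 1.34), and the interferon response was at -0.85 on the left and 0.02 on the right.

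In M3cKO PNX, none of 30 actin and motility genes differed at 2-fold, 1 of 19 immediate early genes was lower (Fosb, at 671, 1302 and 1517 CPM in M3cKO PNX, Foxo1cKO PNX and WT PNX) and none higher, and of 12 adhesion genes 1 was higher (Adam8) and 1 lower (Clec5a). Of 23 pattern recognition and Fc receptors, 1 was higher (Cd300lf) and 1 lower (Sirpb1c), and of 6 NADPH oxidase genes Cybb was higher and Ncf4, a cytosolic subunit, lower, at 287, 729 and 653 CPM. Of 8 angiogenic and matrix-remodelling factors compared, Thbs1 and Mmp8 were higher and none lower. Over all genes compared at 2-fold, 15% were higher and 5.02% lower, the shares to set beside each of these list counts. At 1.5-fold 3 of 10 angiogenic and matrix-remodelling factors were higher and 3 lower, where 23.0% and 27.9% of all genes were. Vegfa, the main vessel growth factor, was at 223, 243 and 432 CPM, a ratio of 0.516 (0.355 to 0.76) for M3cKO PNX and 0.563 (0.337 to 0.927) for Foxo1cKO PNX, both over the same WT PNX library. A Vegfa UMI was in 18.37%, 15.85% and 25% of neutrophils, and in 60.16%, 64.95% and 72.53% of endothelial cells. Endothelial markers in neutrophils were also highest in WT PNX, at 150, 478 and 1055 CPM in the same order. The part of endothelial RNA in the Vegfa levels was not tested.

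To see how neutrophils varied among themselves, cells were divided, within each library, at the median share of S100a8 and S100a9 in their UMIs, into an upper and a lower set, and the 2 genes were left out of the totals. The median share was 15.6% against 6.30% in M3cKO PNX, 19.1% against 4.29% in Foxo1cKO PNX and 16.2% against 3.90% in WT PNX. Of 1333 genes with at least 60 UMIs, 60 were higher in the upper set by at least 0.5 on the log2 scale in all 3 libraries and 53 were higher in the lower set. This division was chosen with the values in view, uses genes of the call rule and is a description. Cells with a UMI of Csf1r, C1qa, C1qb or Ccr2 were kept in it. Without them 203 of 245 M3cKO PNX, 68 of 82 Foxo1cKO PNX and 63 of 76 WT PNX neutrophils remain. The division was not repeated on those, so the part of RNA of other cells in it was not tested.

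Mmp8 had 4596 CPM in the upper set and 867 CPM in the lower set in M3cKO PNX, 2972 and 442 CPM in Foxo1cKO PNX, and 1638 and 479 CPM in WT PNX. Ly6g had 365 against 95.2 CPM, 1289 against 172 CPM and 587 against 83.3 CPM in the same order of libraries. Retnlg, a gate gene, Wfdc21, Lcn2, Lyz2, Cd177, a neutrophil surface antigen, and S100a6 were also higher in the upper set of all 3 libraries. Icam1, an adhesion molecule, had 35.4 CPM in the upper set and 249 CPM in the lower set of M3cKO PNX, 35.8 and 270 CPM in Foxo1cKO PNX, and 48.9 and 292 CPM in WT PNX. Cst3, cystatin C, had 466 against 1311 CPM, 573 against 1572 CPM and 562 against 1354 CPM, and Gadd45b, a stress-response gene, had 206 against 486 CPM, 89.5 against 368 CPM and 73.4 against 542 CPM. Itga4, an integrin chain, Klf4, Csf1, Ctss, Ctsb, Ccl3, Clec4a1, Gngt2 and Plac8 were higher in the lower set in the same way. Median depth per cell was 1546 against 1370 UMIs in M3cKO PNX, 1675 against 968 UMIs in Foxo1cKO PNX and 1327 against 1169 UMIs in WT PNX. Without S100a8 and S100a9, the upper and lower sets summed to 169713 and 189165 UMIs in M3cKO PNX, 55857 and 40715 UMIs in Foxo1cKO PNX, and 40898 and 48005 UMIs in WT PNX.

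**Figure D5:**
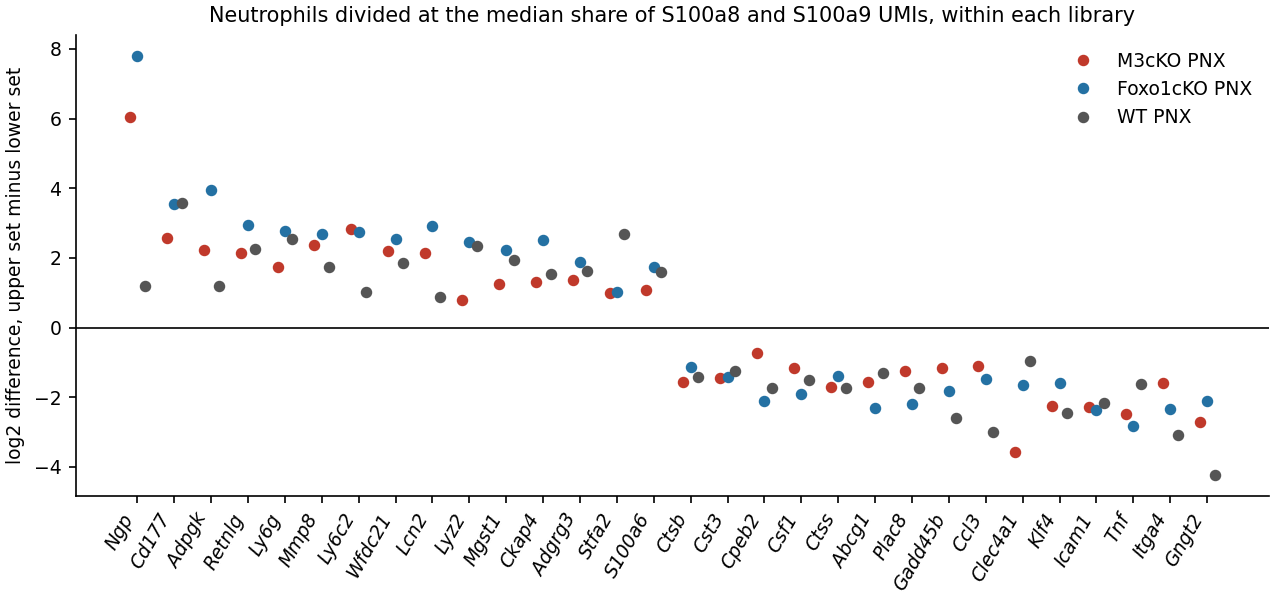
Log2 difference between neutrophils above and neutrophils below the median share of S100a8 and S100a9 UMIs (y axis) for 30 genes, with 1 point each for M3cKO PNX, Foxo1cKO PNX and WT PNX. The 15 genes on the left, among them Mmp8 and Ly6g, were higher in the upper set of each library, and the 15 on the right, among them Icam1 and Cst3, were higher in the lower set.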

How the data were processed

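The authors deposited 4 matrices of raw UMI counts per gene and barcode, 1 per library, with 32285 genes and 34683 barcodes in all. The labels' protocols name Cell Ranger 2.1.1 and mm10, the submitters' processing notes add R 3.4.4, and the software version in the matrix file headers is 3.0.0. Library totals ran over 16197681 to 30445999 UMIs. The neutrophils, the gene lists and the comparisons were chosen with earlier results of these data known, so no list is independent evidence.

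UMIs of member cells were summed per library and divided by their total (CPM). Levels carry exact Poisson, ratios exact conditional binomial and shares exact Clopper-Pearson 95% intervals, which cover counting error only. A gene was called at 2-fold with at least 100 CPM and 20 UMIs in its higher library, and list members were counted at 1.5-fold from 50 CPM. Log2 differences use CPM plus a pseudocount of 20, and a level of 0 was set to a floor of 3 UMIs in ratios. Shares of cells with a UMI were also computed after thinning each cell to 500 UMIs. Named genes are the 10 with the largest ratio in each direction, with up to 4 members of each list. The 10 leave out mitochondrial, ribosomal, haemoglobin, immunoglobulin, T cell receptor and numbered model genes. Genes more than 3 times as high in the other kept cells are left out too. Of sex-linked genes only Xist, Tsix, Ddx3y, Eif2s3y, Kdm5d and Uty were left out, so other X-linked genes such as Cybb could be named. Further genes, such as Mcl1, Cxcr4 and those of the division by S100 share, were named after their values were seen. No doublets were removed, and an alternative removed the highest Scrublet scores at 0.8% per 1000 barcodes, which took out 15 M3cKO PNX, 2 Foxo1cKO PNX and 2 WT PNX neutrophils. Gene coordinates are from GENCODE on GRCm38 and promoter windows from RefSeq. Python 3.11.15, numpy 2.4.6, scipy 1.17.1, pandas 2.3.3, scanpy 1.11.5, matplotlib 3.10.9 and, for TMM factors, R 4.3.3 with edgeR 4.0.16 were used, and the summing and calling steps were tested on simulated data.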

Additional observations from a re-analysis of the deposited data

How the results depend on the processing

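No paired analysis was possible because each group is 1 library. Of 1600 ratios of named genes under the alternatives, 10 changed direction from a main ratio of at least 1.5-fold. Of the rest, 1566 stayed inside the counting interval of the main ratio and 24 fell outside it. Main ratios nearer to 1 that crossed it are not among the 10. Some intervals are wide, and the alternatives reuse many of the same cells. With at least 500 genes per cell the shares were 0.805% in Foxo1cKO PNX and 0.891% in WT PNX, and the specific granule median of Foxo1cKO PNX over WT PNX was 1.76. With at most 5% mitochondrial UMIs the shares were 15.2% in M3cKO PNX, 6.01% in Foxo1cKO PNX, 5.99% in WT PNX and 0.154% in sham, and M3cKO PNX was 2.54-fold WT PNX. With at least 30 S100a8 and S100a9 UMIs the M3cKO PNX medians were -0.50 for interferon and 0.074 for macrophage markers (-0.76 with all cells). Without cells holding Csf1r, C1qa, C1qb or Ccr2 the M3cKO PNX share was 3.36%, its medians were 1.01 for specific granules and -0.025 for monocyte markers, and its ratios 0.826 for Hspa1b and 0.620 for Treml4. For Foxo1cKO PNX the medians were then 0.92 for specific granules and -0.076 for the cell cycle, and the ratios 0.852 for H2afz and 1.47 for Tmsb10. Without the highest Scrublet scores the M3cKO PNX medians were 0.51 for specific granules, -0.27 for monocyte and -1.87 for platelet markers (0.28 and 1.54 with all cells), and the ratios 0.471 for Chil3, 0.157 for Nrgn, 0.0436 for Ppbp and 0.742 for Treml4. Under TMM factors 307 genes were higher and 34 lower in M3cKO PNX, 28 were lower in Foxo1cKO PNX, and the M3cKO PNX medians were 0.94 for specific granules, 0.50 for tissue-activated genes, -0.45 for interferon, 0.0082 for immediate early genes and 0.0029 for the cell cycle. At 200 CPM 87 genes were higher in M3cKO PNX, and with no CPM minimum 375. With lists measured from 20 CPM the M3cKO PNX medians were 0.52 for specific granules, -0.64 for interferon and 0.065 for lipid mediators, and the Foxo1cKO PNX medians -0.26 for the cell cycle and -0.48 for T or NK cell markers. The denominators and the omission of single cells were chosen after seeing the data. Shares without Cdh5 cells were 7.44%, 3.51%, 3.61% and 0.256% in M3cKO PNX, Foxo1cKO PNX, WT PNX and sham (ratio of M3cKO PNX to WT PNX 2.06), with Ptprc 9.37%, 4.07%, 4.86% and 0.889% (1.93), and of all barcodes 2.70%, 0.940% and 0.820% in the 3 PNX libraries. Without the top Ngp cells the Foxo1cKO PNX median for specific granules was 0.85 and its Chil3 ratio 0.365. Without the top Ifit1 cells the M3cKO PNX median for specific granules was 1.20 and the Foxo1cKO PNX ratio of Ifit1 1.53. The causes were not tested. Gene ratios of WT PNX over sham were not run, since sham held 2 neutrophils, nor was a comparison within cells of 1 sex, with 94, 6 and 4 cells in M3cKO PNX, Foxo1cKO PNX and WT PNX.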

Other observations

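The 2 sham neutrophils held 2324 UMIs together, of which 88 were S100a8 and 101 S100a9. Il1b had 80 UMIs in them, Cxcl2 19, Ccl3 18, Ccrl2 17, Acod1 15 and Trem1 13, while Ly6g and Mmp8 had none, which at this depth does not show absence.

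Actb, the cytoplasmic actin, was at 21754 CPM in M3cKO PNX, 25681 CPM in Foxo1cKO PNX and 23712 CPM in WT PNX neutrophils. Srgn, the granule proteoglycan serglycin, was at 14563, 11287 and 13584 CPM, and Fth1, ferritin heavy chain, which stores iron, at 13465, 8691 and 8902 CPM. Cd14, a co-receptor for lipopolysaccharide, was at 6040, 3881 and 3667 CPM.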
